A study of Mus musculus with 7 samples.

Results

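The IL-1 family of cytokines is described here through 10 genes: the ligand genes Il1a and Il33, the receptor chain genes Il1r1, Il1rap, Il1rl1, Il18r1 and Il18rap, and Il1rn, Il1r2 and Il18bp, whose products restrain the same ligands. The members were chosen by name, and all 10 had a row among the 23420 rows of the deposited table. The samples were heart RNA libraries of 7 mice aged 3 to 6 weeks that had received no treatment. All 7, controls included, were labelled Pdcd1-/-, a deletion in the gene of the checkpoint receptor PD-1. The 4 controls were Ctla4+/+ and the 3 ICI-myocarditis mice were Ctla4+/-, a genetic model of the heart inflammation that can follow immune checkpoint inhibitors (ICI). The comparison asked which transcripts differ between the ICI-myocarditis and the control hearts in this model. Sex, the age of each animal and the age at which disease began were not given, and the labels name the tissue both as ventricle and as whole heart.

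The ligands IL-1 alpha and IL-1 beta bind the receptor encoded by Il1r1, which then pairs with the accessory chain encoded by Il1rap and signals through MyD88 to NF-kB. IL-33, a nuclear protein of stromal cells that is released on damage, uses the same accessory chain with its own receptor ST2, encoded by Il1rl1. IL-18 binds the chain encoded by Il18r1, which pairs with that of Il18rap, and drives interferon-gamma production by T and NK cells. Each arm has a brake: the receptor antagonist (Il1rn) and the decoy receptor (Il1r2) for IL-1, a soluble form of ST2 for IL-33, and the binding protein (Il18bp) for IL-18.

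Libraries held 20931730 to 39037176 reads assigned to genes. Values are normalized counts, which are reads divided by 1 size factor per library. Ctla4 was at 29.2 to 113 normalized counts in controls and 251 to 373 in ICI-myocarditis, above rather than below its level in Ctla4+/+ mice. Pdcd1, labelled as deleted throughout, had 2.50 to 244 in controls and 1096 to 1481 in ICI-myocarditis. Which part of either gene was deleted was not given, so these levels do not check the labels. Control 2 lay between the other controls and the ICI-myocarditis libraries on the first principal component, at 2.25 against -96.6 to -61.1 and 58.8 to 105. The 6 cardiomyocyte markers examined summed to 698275 to 2205430 normalized counts per library, so the labelled tissue's defining genes were abundant throughout. Whether a transcript was lower because fewer cells made it or because each cell held less of it cannot be told apart in such bulk samples, and the same holds for increases.

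The brake genes Il1rn, Il1r2 and Il18bp and both IL-18 receptor chain genes rose in ICI-myocarditis, as did Il33, while the signalling receptor of IL-1 and the shared accessory chain did not pass the test. Of the 10 members, 9 reached 10 normalized counts in 3 or more libraries and were tested, and Il1a was not. Among those 9, 6 were higher (Il1rn, Il18rap, Il18r1, Il1r2, Il18bp and Il33) and 0 lower at an adjusted p under 0.05 from limma, a linear model fitted to log2(normalized count + 1) with p adjusted by Benjamini-Hochberg across the 15236 genes that were tested. Over all genes tested, 11.7% were called higher, 4.00% lower and 15.7% in either direction. edgeR's quasi-likelihood test on the recovered reads also called 6 members, with 13.5% of its genes called, and at an unadjusted p under 0.05 limma had Il1rl1 as the only lower member. Il1r2 passed the filter through the ICI-myocarditis libraries alone and therefore had to differ, so the count is not evidence about the family as a whole. The groups did not overlap for 7 of the 10 members on the high side, the untested Il1a among them, and for 1 (Il1rl1) on the low side. Of all tested genes 17.3% and 11.3% did not overlap on these sides, 28.6% in all.

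**Figure D1:**
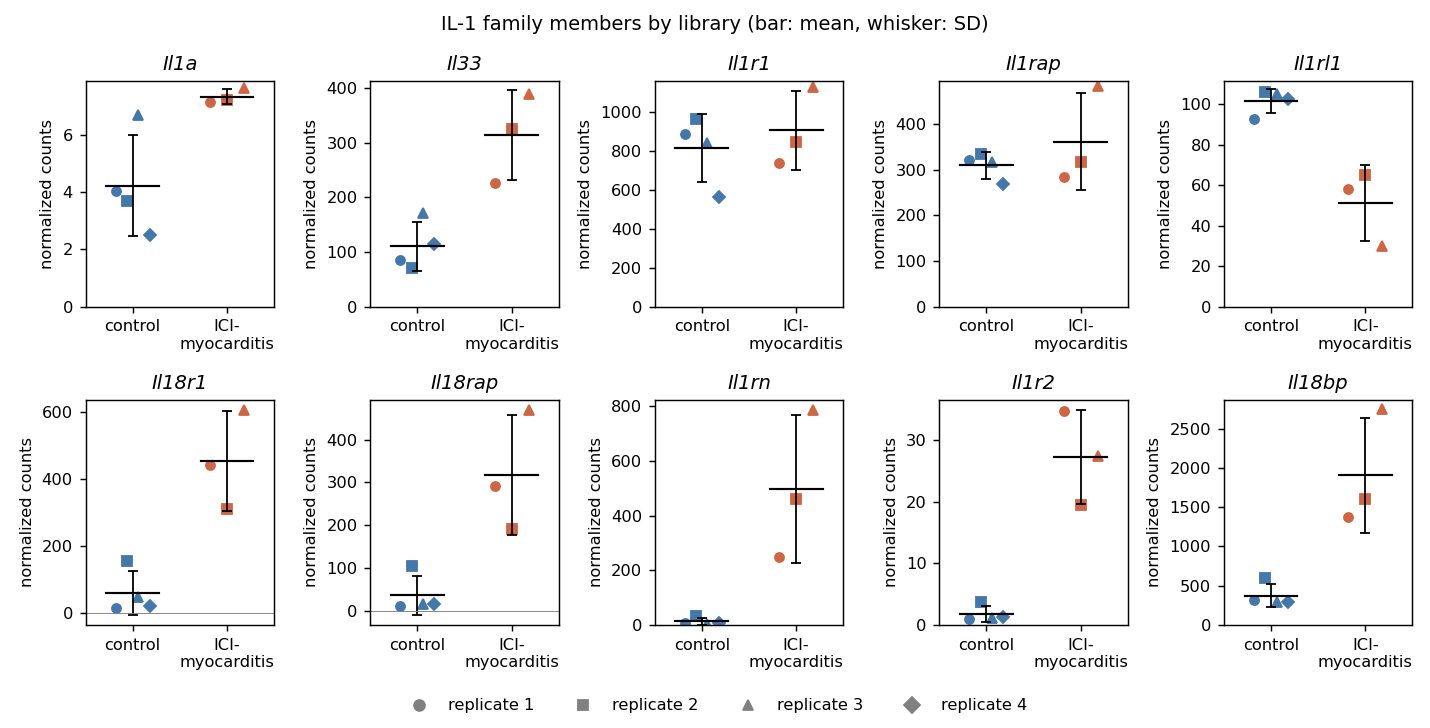
Normalized counts (y axis, linear) of each of the 10 members in the 4 control and 3 ICI-myocarditis libraries, with marker shapes for replicate numbers, a bar for the mean and a whisker for the SD. Every ICI-myocarditis point lies above every control point for Il1a, Il1rn, Il1r2, Il18r1, Il18rap, Il18bp and Il33, Il1rl1 lies below in all 3, and the groups overlapped for Il1r1 and Il1rap.

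Il33 encodes the alarmin IL-33. Il33 stood at 85.7, 70.3, 171 and 114 normalized counts in controls 1 to 4 and at 226, 326 and 390 in ICI-myocarditis 1 to 3. Every ICI-myocarditis library was above every control, and control 2 was the lowest of all 7. The limma log2 fold change of Il33 was 1.55 (SE 0.347, adjusted p = 0.0172), from 110 ± 44.3 (SD, n = 4) to 314 ± 82.8 (SD, n = 3). The call was lost without ICI-myocarditis 2 (limma adjusted p = 0.0647), without ICI-myocarditis 3 (0.0813) or without control 1 (0.0522), with a fold change of at least 1.37 on the log2 scale in each. Fibroblast markers, which belong to the cells known as a main cardiac source of IL-33, were examined beside it. Of 6, only Col1a1 was called higher, and Pdgfra and Dcn had log2 fold changes of 0.27 and 0.11 (limma adjusted p = 0.574 and 0.877). Tcf21, Lum and Dpt had 0.70, 0.51 and 0.11 (limma adjusted p = 0.0823, 0.373 and 0.839). For Tcf21 every ICI-myocarditis library was above every control. The summed level of the 6 was 25500 to 43343 normalized counts in controls and 46024 to 81342 in ICI-myocarditis. Without Col1a1, left out after its values were seen, the other 5 summed to 14935 to 34982 and 21089.6 to 31715, and the groups overlapped. Of 6 endothelial markers, the other known source, 3 were called lower, with sums of 26737 to 66539 against 17304 to 24984. The part of either cell type in the change of Il33 was not tested.

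Il1a, the gene of IL-1 alpha, was near the limit of detection. It had 4, 3, 6 and 2 reads in the controls and 7, 10 and 10 in ICI-myocarditis, or 2.50 to 6.70 and 7.16 to 7.64 normalized counts. The groups did not overlap, but the ratio over the summed reads, 1.72, had an exact 95% interval for counting error alone of 0.882 to 3.47, so a difference was not detectable at this depth. Il1b, which encodes the other IL-1 ligand, was at 13.1, 83.9, 15.6 and 1.25 normalized counts in controls and 98.2, 76.8 and 71.8 in ICI-myocarditis. Control 2 alone reached the ICI-myocarditis range. The log2 fold change of Il1b was 2.50 (SE 0.988) and did not pass (limma adjusted p = 0.124), but without control 2 it was 3.35 and passed (0.0102). It was 1.61 without control 4 (limma adjusted p = 0.142) and 1.49 with edgeR (adjusted p = 0.292). Il18, the gene of IL-18, rose from 19.1 ± 7.23 to 61.5 ± 19.6 normalized counts (limma log2 fold change 1.66, SE 0.432, adjusted p = 0.0309). That call was lost on leaving out any library other than control 2, with limma adjusted p from 0.051 (without ICI-myocarditis 2) to 0.154 (without ICI-myocarditis 3).

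The receptor genes of the IL-1 arm differed least. Il1r1 was at 887, 962, 839 and 561 normalized counts in controls and 736, 846 and 1129 in ICI-myocarditis. The groups overlapped, with the lowest value in control 4 and the highest in ICI-myocarditis 3. The limma log2 fold change of Il1r1 was 0.16 (SE 0.244, adjusted p = 0.714), with a 95% interval of -0.39 to 0.71. Il1rap, which serves IL-1 and IL-33 alike, was at 321, 334, 316 and 268 in controls and 284, 317 and 483 in ICI-myocarditis. ICI-myocarditis 3 again stood above the rest. Il1rap had a limma log2 fold change of 0.19 (SE 0.234, adjusted p = 0.644) and a 95% interval of -0.34 to 0.71, which leaves room for changes of either gene within those bounds. The signs of both fold changes turned without ICI-myocarditis 3 (-0.012 for Il1r1 and -0.040 for Il1rap). Membrane-bound and soluble forms of the accessory chain come from 1 gene, and counts per gene do not separate them.

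Il1rl1, the gene of ST2, was the single member at lower levels in ICI-myocarditis. It stood at 92.8, 106, 105 and 103 normalized counts in controls and at 58.3, 65.2 and 29.8 in ICI-myocarditis. The controls lay within a narrow range, control 2 included, and all 3 ICI-myocarditis libraries lay below them. The log2 fold change was -1.05 (SE 0.334), which missed the threshold (limma adjusted p = 0.0636). Il1rl1 did pass in 3 of 18 alternatives, namely DESeq2 (adjusted p = 0.0224), limma-voom with quality weights (0.0420) and limma with neither trend nor robust variance (0.0450), and in the authors' deposited table (log2 fold change -0.99, adjusted p = 0.0225). The authors' values nearly equal those of DESeq2 here (SE 0.341 in both), so they count as 1 test. On simulated counts 26.3% of DESeq2's calls were wrong, against 8.7% for limma with trend and robust variance. Only 200 genes had been altered there, of 15021 tested by DESeq2 and 15084 by limma. Of the genes altered by 1 on the log2 scale, DESeq2 recovered 48.6% and limma 17.1%. Whether these shares hold for the 7 heart libraries was not tested. DESeq2 called 20.3% of its genes, 7.34% as lower, limma-voom 26.3% and 9.97%, plain limma 14.6% and 3.45%, and 20.2% were called in either direction by the authors' deposited table. Without ICI-myocarditis 3 the log2 fold change was -0.71 (limma adjusted p = 0.244). Mast cells carry ST2, and of 6 tested mast cell markers the protease genes Cpa3 and Mcpt4 fell, by 1.61 and 1.60 on the log2 scale (limma adjusted p = 0.0257 and 0.0477), and Hdc rose by 1.55 (0.0361). Tpsb2, Cma1 and Kit had log2 fold changes of -0.75, -0.84 and -0.15 (limma adjusted p = 0.260, 0.239 and 0.847). Of all 8 markers, 4 were lower in every ICI-myocarditis library than in any control, and 1 was higher. The 8 markers summed to 542 to 1410 normalized counts in controls and 867 to 1189 in ICI-myocarditis, with Kit and Hdc as the largest parts. Ms4a2 had at most 2.02 in any control and 0 in every ICI-myocarditis library. Regulatory T cells can also carry ST2, and their marker Foxp3 had a log2 fold change of 2.42 (limma adjusted p = 0.052). Of the 3 markers of these cells 1, Ikzf2, was called higher, and they summed to 510.5 to 681 normalized counts in controls and 982 to 1363 in ICI-myocarditis. The part of these cells in the level of Il1rl1 was not tested. Reads of the membrane receptor and of its soluble form, which acts as a decoy for IL-33, are both counted under this gene.

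Both chains of the IL-18 receptor rose together. Il18r1 was at 14.1, 155, 48.0 and 21.3 normalized counts in controls and 443, 311 and 607 in ICI-myocarditis. Il18rap was at 10.1, 105, 15.6 and 15.0 in controls and 291, 192 and 470 in ICI-myocarditis. For both genes control 2 lay well above the other controls and below every ICI-myocarditis library. The log2 fold changes were 3.45 for Il18r1 (SE 0.709, limma adjusted p = 0.0122) and 3.66 for Il18rap (SE 0.726, limma adjusted p = 0.0107). Both calls were lost without ICI-myocarditis 3 (limma adjusted p = 0.0555 and 0.0512), and without control 2 the fold changes were 4.11 and 4.38. All 6 T cell markers in the table were called higher, with sums of 62.6 to 907 normalized counts in controls, the highest in control 2, and 3924 to 6314 in ICI-myocarditis. Of 8 markers of cytotoxic lymphocytes 6 were called higher, with sums of 40.0 to 818 and 3767 to 6194, while the NK cell genes Ncr1 and Klrb1c had log2 fold changes of 1.05 and 2.11 (limma adjusted p = 0.395 and 0.0935). The part of these cells in the level of both receptor genes was not tested.

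Among the brakes, Il1rn had the largest fold change of the 9 tested members. Il1rn, the gene of the IL-1 receptor antagonist, was at 9.07, 33.3, 4.47 and 7.51 normalized counts in controls and 249, 460 and 786 in ICI-myocarditis. All ICI-myocarditis libraries were far above all controls, and control 2 was the highest control. The limma log2 fold change of Il1rn was 5.32 (SE 0.638, adjusted p = 0.00285), and it passed in all 18 alternatives (largest adjusted p 0.0143). Secreted and intracellular forms of the antagonist come from this 1 gene and were not separated.

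Il18bp, whose product binds IL-18 and is known to be induced by interferon-gamma, was the most abundant brake. It stood at 316, 601, 290 and 293 normalized counts in controls and 1375, 1601 and 2744 in ICI-myocarditis. Control 2 was the highest control, and the groups did not overlap. The limma log2 fold change of Il18bp was 2.35 (SE 0.328, adjusted p = 0.00379), passing in all 18 alternatives (largest adjusted p 0.0184). Il18bp (chr7:102014885-102018690, minus strand) overlaps Numa1 on the opposite strand, and whether strand was used in counting was not given in the sources used here. Numa1 itself had a limma log2 fold change of -0.15 (SE 0.262, adjusted p = 0.755).

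Il1r2, the decoy receptor that binds IL-1 without signalling, was near the floor in controls. Controls had 1, 3, 1 and 1 reads and ICI-myocarditis libraries 34, 27 and 36, or 1.01 to 3.70 and 19.6 to 34.8 normalized counts. Every ICI-myocarditis library was above every control. The ratio over the summed reads was 15.4, with an exact 95% interval for counting error of 6.83 to 43.1, and limma's log2 fold change was 3.41 (SE 0.528, adjusted p = 0.00457). An antisense gene overlaps Il1r2, as one does Il1rap, so reads could not be assigned between them if strand was not used. Neutrophils are a known source of Il1r2. Of their markers Csf3r was called higher, S100a8 and S100a9 had log2 fold changes of -0.20 and -0.62 (limma adjusted p = 0.901 and 0.645), and the 6 in the table summed to 50.4 to 218 normalized counts in controls and 327 to 904 in ICI-myocarditis. Without Csf3r, left out after its values were seen, the other 5 summed to 14.1 to 101 and 25.4 to 84.0, and the groups overlapped. All 7 macrophage and monocyte markers in the table, which belong to known sources of Il1rn and Il18bp, were called higher, with sums of 8915 to 10369 and 27663 to 52734. The part of these cells in the 3 brakes was not tested.

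**Figure D2:**
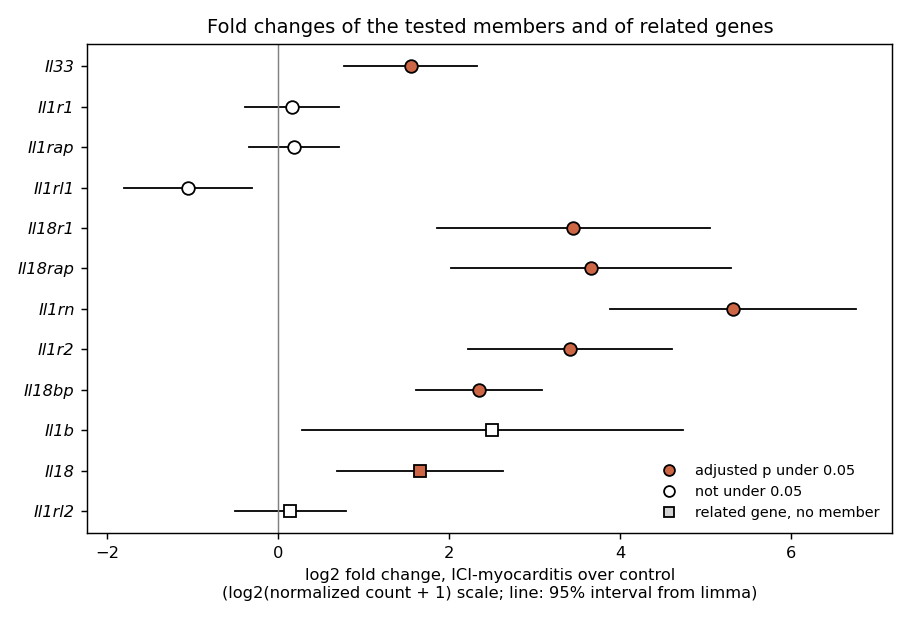
Log2 fold changes of ICI-myocarditis over control (x axis) for the 9 tested members (circles) and for Il1b, Il18 and Il1rl2 (squares), with unadjusted 95% intervals from limma. Filled markers passed an adjusted p of 0.05: Il1rn lies farthest to the right at 5.32, Il1r1 and Il1rap lie near 0, and Il1rl1 lies at -1.05 without passing.

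Levels were compared between genes per kilobase of annotated exon. In controls Il1r1 and Il18bp came first, at 128 ± 27.5 and 124 ± 49.9 normalized counts per kilobase (SD, n = 4), and their ranges overlapped. Il33 (38.2 ± 15.3) and Il1rap (27.3 ± 2.55) followed and overlapped each other. Neither reached the range of Il18bp. Below them stood Il1rl1 (14.7 ± 0.881), which did not reach the range of Il1rap, and then Il18r1, Il18rap, Il1rn, Il1a and Il1r2, each overlapping the next, down to 0.927 ± 0.677 for Il1r2. In ICI-myocarditis Il18bp stood alone at the top, at 630 ± 242 (SD, n = 3). Then came Il1r1 (142 ± 31.8), Il33 (109 ± 28.7), Il18r1 (94.2 ± 30.8), Il1rn (90.0 ± 48.9), Il18rap (47.0 ± 20.9) and Il1rap (31.8 ± 9.38), each overlapping the next. Il1r2, Il1rl1 and Il1a, at 14.3 ± 3.99, 7.41 ± 2.72 and 3.72 ± 0.129, came last and overlapped neither Il1rap nor one another. By level, Il1rn stood in place 8 of 10 in controls and 5 in ICI-myocarditis, and Il1rl1 in place 5 and 9.

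The balance of each arm was read within libraries, as the difference of log2(normalized count + 1) of 2 genes, which depends on no size factor beyond the pseudocount. The 5 pairs were tested exactly by two-sided permutation of the group labels (35 arrangements, smallest possible p 0.0286), with adjustment over the 5. Il1r2 against Il1r1, decoy against signalling receptor, was -8.27 ± 0.530 (SD, n = 4 controls) and -5.01 ± 0.563 (SD, n = 3 ICI-myocarditis), without overlap (exact permutation p = 0.0286, adjusted 0.0714). Because Il1r2 passed the filter through ICI-myocarditis alone and had to differ, the separation of this pair is no independent result. Its shift was 3.25 with a pseudocount of 1, 3.56 with 0.5 and 2.09 with 5. Il1rl1 against Il33, receptor against ligand, was -0.037 ± 0.535 and -2.64 ± 0.912, again without overlap (exact permutation p = 0.0286, adjusted 0.0714). These differences are not per length, so only their shift between groups is read. Il1rn against Il1b, antagonist against agonist, was -0.37 ± 1.60 and 2.44 ± 1.06 (exact permutation p = 0.0857, adjusted 0.143), with control 4, at 1.92, above ICI-myocarditis 1. Il18bp against Il18 was 4.23 ± 0.521 and 4.92 ± 0.462 (exact permutation p = 0.143, adjusted 0.179). The last pair, Il18rap against Il18r1, was -0.76 ± 0.534 and -0.56 ± 0.168 (exact permutation p = 0.857, adjusted 0.857), with overlapping groups. No pair passed after adjustment. The pairs without overlap were already at the smallest possible p, so no wider separation could have made them pass. Their adjusted p is therefore no evidence of an unchanged balance.

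**Figure D3:**
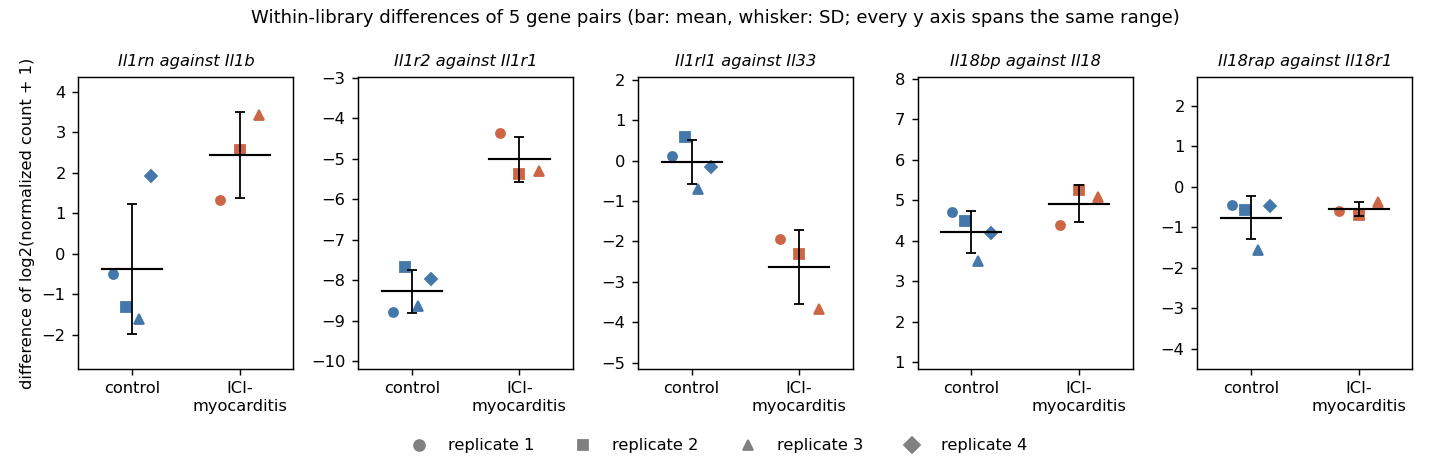
Difference of log2(normalized count + 1) between the first and the second gene of 5 pairs (y axis, equal spans) in each library, with bars for means and whiskers for SD. The groups lie apart for Il1r2 against Il1r1 and for Il1rl1 against Il33, and overlap for the other 3 pairs.

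Of the members, 5 lie side by side on chromosome 1 with Il1rl2, the receptor gene of the IL-36 ligands. In GENCODE release M21 (GRCm38) this run of 6 receptor genes covers 477.6 kilobases on the plus strand in the order Il1r2 (chr1:40074079-40125231), Il1r1 (chr1:40225080-40317257), Il1rl2 (chr1:40324610-40367562), Il1rl1 (chr1:40429570-40465415), Il18r1 (chr1:40465552-40500854) and Il18rap (chr1:40515362-40551705). The order of the groups differed between neighbours. Il1rl2, between Il1r1 and Il1rl1, had a limma log2 fold change of 0.14 (SE 0.288, adjusted p = 0.785). Il1rl1 and Il18r1 are separated by 136 bases only, yet all ICI-myocarditis libraries were below all controls for the first and above them for the second. Slc9a2, the second gene beyond Il18rap, which encodes a sodium-proton exchanger, fell from 156 ± 47.4 to 38.8 ± 25.3 normalized counts (limma log2 fold change -2.26, SE 0.567, adjusted p = 0.0269), but missed the threshold without control 1, 3 or 4 (0.0736, 0.0674 and 0.0532).

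The bases that separate these oppositely placed neighbours are shown as they stand in RefSeq's promoter table for GRCm38.p6, plus strand, 5′ to 3′. The first line is all 136 bases between the end of Il1rl1 and the start of Il18r1 in GENCODE (chr1:40465416-40465551). The next pair gives the bases before both RefSeq starts of Il1rl1, which lie 10059 bases apart (chr1:40429320-40429569 and chr1:40439379-40439626, the second ending 2 bases short of its start). As background, the first start is known from blood cells such as mast cells and the second from fibroblasts. The last line gives the 250 bases before Il18rap (chr1:40515112-40515361).
between Il1rl1 and Il18r1: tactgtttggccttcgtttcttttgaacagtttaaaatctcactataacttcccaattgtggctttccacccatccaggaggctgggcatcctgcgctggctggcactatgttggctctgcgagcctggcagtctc
Il1rl1 first start: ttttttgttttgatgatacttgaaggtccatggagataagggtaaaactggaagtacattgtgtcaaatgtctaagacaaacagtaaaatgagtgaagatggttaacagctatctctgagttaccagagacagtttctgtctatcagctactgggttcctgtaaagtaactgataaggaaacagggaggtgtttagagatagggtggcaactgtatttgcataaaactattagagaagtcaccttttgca
Il1rl1 second start: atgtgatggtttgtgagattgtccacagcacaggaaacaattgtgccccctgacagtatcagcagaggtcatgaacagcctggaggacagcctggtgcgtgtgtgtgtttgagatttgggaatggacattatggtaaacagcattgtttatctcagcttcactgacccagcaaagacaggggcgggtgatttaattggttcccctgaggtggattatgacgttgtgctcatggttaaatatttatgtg
Il18rap: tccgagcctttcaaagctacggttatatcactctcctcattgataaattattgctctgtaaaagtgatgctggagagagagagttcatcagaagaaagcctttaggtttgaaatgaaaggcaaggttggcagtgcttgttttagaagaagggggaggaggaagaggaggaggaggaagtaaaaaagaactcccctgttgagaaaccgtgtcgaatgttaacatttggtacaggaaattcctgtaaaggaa

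All 10 members had at least 1 window in that table, 17 windows in all. The 250 bases before each start were searched on both strands for 3 motifs. These were the interferon-stimulated response element (GAAA and GAAA with any 2 bases between), the gamma-activated site bound by STAT proteins (TTC and GAA with any 3 between) and the kappa B site of NF-kB (GGGA and TTCC with any 2 between). The first and the last matched in 0 of the 17 windows, where 2.98% and 1.21% of all 32851 windows held them. The gamma-activated site matched in 2 windows, 1 of Il18r1 and 1 of Il1r2, where 7.02% of all windows held it. These 3 matches are shown because both genes rose, with the motif in capitals and 10 bases on either side. They begin 219 and 152 bases before the third RefSeq start of Il18r1 (chr1:40465777-40465805 and chr1:40465844-40465872) and 111 bases before the start of Il1r2 (chr1:40085972-40086000). In GENCODE the first Il18r1 match and part of the Il1r2 match lie in untranslated exon of transcripts that start further upstream. A match describes letters only, and the window of Il18bp, annotated as untranslated exon throughout, is not shown.
Il18r1 first match: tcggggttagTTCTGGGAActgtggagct
Il18r1 second match: agtacaggtcTTCCCAGAActgaaagctt
Il1r2 match: cgggtgctttTTCAAGGAActtccgacta

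**Figure D4:**
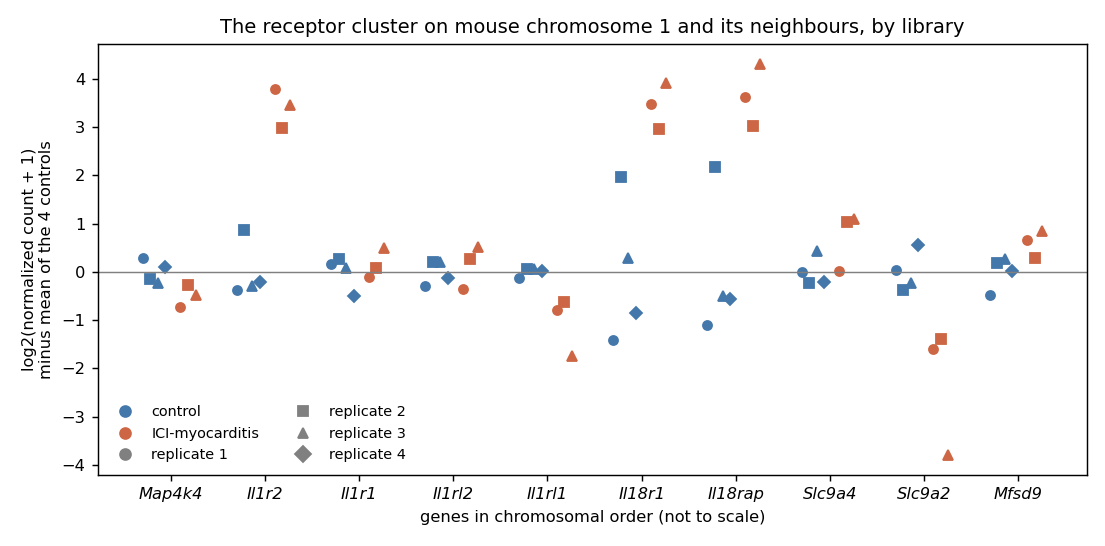
Difference of log2(normalized count + 1) from the mean of the 4 controls (y axis) for the 6 receptor genes of the chromosome 1 cluster and 4 flanking genes in chromosomal order (x axis, not to scale), 1 point per library. Il1r2, Il18r1 and Il18rap lie above the controls in all 3 ICI-myocarditis libraries, as does Mfsd9, while Il1rl1, Slc9a2 and Map4k4 lie below, and control 2 stands above the other controls for Il18r1 and Il18rap.

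Libraries also differed within groups. ICI-myocarditis 3 was the highest library of its group for 8 of the 10 members and the lowest for Il1rl1, where it was the highest of its group for 41% of all tested genes. Control 2 was the highest control for 8 of the 10 members, where it was so for 35.3% of tested genes, and for Il33 it was the lowest.

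By the smallest root mean square difference of profiles over the 7 libraries, each centred on its control mean in log2 units, Il1rn was nearest to Kcnn4 (0.395), Lgals3 (0.466) and Tnc (0.479). Il18bp was nearest to Fxyd5 (0.0801), Bcl11b (0.110) and Adap1 (0.118), and Il33 to B3galt1 (0.220), Srpx (0.236) and Vcan (0.269). Vcan encodes the matrix proteoglycan versican and Tnc the matrix protein tenascin-C. Il18rap was nearest to Slfn1 (0.208), Cyp4f18 (0.263) and Tox (0.268), and Il18r1 to Rhoh (0.270), Rnase6 (0.270) and Treml4 (0.276). Tox encodes a transcription factor of T cells. Il1r2 was nearest to Ly75 (0.261), AF251705 (0.265) and Cela1 (0.278), and Il1rl1 was near Slc26a6 (0.135) and Syp (0.142). Nearest to Il1r1 were Pros1, Zbed6 and Ptpn12, and nearest to Il1rap were Eif4ebp3, Slc36a4 and Bbx, at 0.0604 to 0.0721. These distances describe likeness over 7 libraries in 2 groups and nothing more.

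Of further genes of the family, Il1f5, Il1f6, Il1f8 and Il1f10 were at 0 in all 7 libraries and Il1f9 was at 2.50 normalized counts or less. Of the 4 tested ligand and receptor genes outside the members, 1 was called higher (Il18) and 0 lower. Sigirr, an inhibitory receptor gene of the family, had a limma log2 fold change of -0.18 (SE 0.323, adjusted p = 0.755).

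Of 15 signalling genes below the receptors, all tested, 2 were called higher (Myd88 and Peli1) and 0 lower, with a list median of 0.15 beside -0.024 over all genes tested, of which 11.7% were called higher. Myd88, the gene of the MyD88 protein through which the IL-1 receptor signals, rose from 507 ± 80.3 to 1280 ± 201 normalized counts (limma log2 fold change 1.33, SE 0.200, adjusted p = 0.00424). Peli1, a ubiquitin ligase that acts on IRAK kinases, rose by 1.02 (limma adjusted p = 0.0127), but missed the threshold without ICI-myocarditis 3 (0.0562). Of 9 genes of ligand processing and release 7 were called higher and 0 lower, with a median of 1.68, and the difference between the lists was not tested. Casp1, which cleaves the precursors of IL-1 beta and IL-18, rose by 2.73 (SE 0.384, limma adjusted p = 0.00385), and Casp4, the caspase of the noncanonical inflammasome, by 2.38 (0.0113). Nlrp3, an inflammasome sensor, rose by 2.56 (limma adjusted p = 0.0231) and Capn1, a calpain subunit, by 0.81 (0.0271). The Nlrp3 call was lost without any one of ICI-myocarditis 2 or 3 or control 1 or 3, and the Capn1 call likewise (largest adjusted p 0.104 and 0.124).

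Of 18 genes known as NF-kB targets below IL-1 receptors, 13 were tested, 7 called higher and 0 lower, with a median of 1.70. Over all genes tested, 11.7% were called higher and 4.00% lower. The list was chosen with earlier results of these data known, so its count is no test of the pathway. Ptgs2, the inducible cyclooxygenase, rose from 68.2 ± 23.0 to 518 ± 220 normalized counts (limma log2 fold change 2.89, SE 0.362, adjusted p = 0.00317). Tnfaip3, a feedback inhibitor of NF-kB, rose by 2.10, the adhesion molecule gene Vcam1 by 2.07 and the monocyte chemoattractant gene Ccl2 by 3.74 (limma adjusted p = 0.00869, 0.00898 and 0.0183). Ccl2 missed the threshold without ICI-myocarditis 2 or 3 (0.0604 and 0.0771). Many other signals act on these genes, and no library separates IL-1 from them.

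Genes known to follow IL-33 in type 2 immunity were split. Of 6 tested, 3 were called higher (Arg1, Ccl17 and Gata3) and 1 lower (Ccl24), beside 11.7% and 4.00% of all genes tested. This list too was chosen with earlier results known. Arg1, arginase of macrophages, rose from 21.9 ± 7.67 to 328 ± 131 normalized counts (limma log2 fold change 3.82, SE 0.422, adjusted p = 0.00251), and the chemokine gene Ccl17 rose by 2.79 (0.0139). Ccl17, at 1.12 to 7.40 normalized counts in controls, passed the filter through the ICI-myocarditis libraries alone. Like Il1r2 it therefore had to differ, and its call is no evidence about the list. Gata3, a transcription factor gene of T cells and group 2 innate lymphoid cells, rose by 2.29 (0.0267), a call that edgeR did not make (0.059) and that ended on leaving out control 1, control 3 or any ICI-myocarditis library (up to 0.113). Ccl24, the gene of the eosinophil attractant eotaxin-2, fell from 56.4 ± 10.9 to 6.26 ± 7.76 normalized counts (limma log2 fold change -3.50, SE 0.639, adjusted p = 0.00816). The effector cytokine genes themselves were scarce: Il5 reached 20.6 normalized counts, Il13 7.25 and Il4 4.03 in their highest libraries, Il9 was at 0 in all 7, and the only one tested, Il5, was not called (limma adjusted p = 0.228).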

How the data were processed

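Total RNA of heart tissue from 4 control and 3 ICI-myocarditis mice was made into stranded libraries and sequenced from both ends, per the labels' protocols. The submitters' processing notes name STAR 2.7.3 and the builds GRCm38 and mm10. The counting program, annotation and use of strand were not given in the sources used here. The deposited library columns hold a signal, namely read counts that the authors divided by 1 size factor per library, as the values show: with a tolerance of 0.1 read, 100% of values were whole multiples of the smallest step. For control 1 that step was 1.01, so close to 1 that the sign is weaker there. Per the file headers, the table also holds the authors' log2 fold change, its standard error, a test statistic given as a score, and the p-value before and after adjustment.

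Of 23420 rows, 27 had names turned into dates (0.143% of reads) and were left out. Because the values are normalized, limma (version 3.58.1, R 4.3.3) with trend and robust variance was fitted to log2(normalized count + 1) for genes with at least 10 in at least 3 libraries, with a threshold of 0.05 on the Benjamini-Hochberg adjusted p. Fold changes on this scale understate those of low genes. edgeR (4.0.16) and DESeq2 (1.42.0) on recovered reads, other scalings, pseudocounts and filters, and leaving out each library were alternatives, and the tests were run on simulated counts with known changes first. Counting intervals cover counting error only, since without molecular identifiers several reads can come from 1 molecule.

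Members and lists were chosen with earlier results of these data known. The text names all members, Ctla4 and Pdcd1, Il1b and Il18, up to 4 called genes with the lowest p of each pathway list, and the 3 genes of nearest profile per tested member, predicted genes left out, and 1 further gene is not reported here. Numa1, cell type markers and type 2 cytokines were named after their values were seen. Exon lengths and positions are from GENCODE M21, and promoter sequences from RefSeq (GRCm38.p6). Protein sequences were not used here.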

Additional observations from a re-analysis of the deposited data

Results flagged for a closer look

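In 17 sets of 4 control values on the log2 scale (the members, Il1b, Il18 and the 5 pairs), 3 held an isolated library, whose distance to its nearest neighbour, as a share of the whole range, was above Dixon's 95% critical value. Chance alone gives about 1 in 20, and the sets share libraries. That share was 0.885 for Il18bp and 0.866 for Il1r2, both from control 2 on the high side, and Il1r2 had only 3 reads there. It was 0.896 for Il18rap against Il18r1, from control 3 on the low side.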

How the results depend on the processing

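Over 18 alternatives, 158 fold changes of tested members were recomputed. Of these, 146 kept their direction and their side of the threshold, 5 lost a call (Il33, Il18r1 and Il18rap on leaving out a library), 3 gained one (Il1rl1) and 4 turned sign. The number of members called was 4 to 7, apart from 2 without ICI-myocarditis 3, so leaving out 1 library gave 2 to 6. The stricter filter and left-out ICI-myocarditis libraries removed Il1r2 from the test by construction. Genes called over the whole table numbered 4011 with limma-voom and quality weights against 2392, and 983 (without ICI-myocarditis 3) to 3333 (without control 2) on leaving out 1 library. Called genes split into 1783 higher and 609 lower, but 2196 and 1240 with DESeq2 and 2490 and 1521 with limma-voom. The cause of these shifts was not tested.

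Signs turned only for small fold changes. With the replicate block Il1r1 was at -0.0089, Pros1 at -0.037 and Ptpn12 at -0.073. On leaving out 1 library, Il1r1 ran from -0.012 to 0.30, Il1rap from -0.040 to 0.34, Il1rl2 from -0.039 to 0.39 and Eif4ebp3 from -0.047 to 0.35, each lowest without ICI-myocarditis 3, and Slc36a4 from -0.0042 to 0.31. Pros1 ran from -0.037 to 0.26 and Ptpn12 from -0.073 to 0.19, lowest without control 4, and Sigirr from -0.40 to 0.082, highest without control 2. The pair Il18rap against Il18r1 ran from -0.060 (without control 3) to 0.31, Il1rn against Il1b from 2.32 to 3.58, Il1r2 against Il1r1 from 2.93 to 3.45, Il1rl1 against Il33 from -2.95 to -2.08 and Il18bp against Il18 from 0.45 to 0.95. With 1 library fewer no exact test of a pair can pass, so those p-values say nothing of stability. Scaling by library size alone moved the median fold change of all genes from -0.024 to 0.14, and every tested member kept its direction under it.

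Deviations from the group means correlated at -0.271, -0.206 and -0.0778 for libraries with equal replicate numbers in the titles. For unequal numbers the correlations ran from -0.477 to 0.451. With so few libraries, centred on their group means, these values cannot exclude a pairing by number. With the replicate block the same 6 members were called, 1777 genes were called in all, and Il18, Peli1, Capn1 and Slc26a6 missed the threshold (limma adjusted p = 0.074, 0.0656, 0.122 and 0.068). The 7 libraries limit what can be detected for most members, and read depth limits Il1a, Il1r2 and the control level of Il1rn.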

Other observations

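The markers read beside the members cover other tissue as well. Of 4 thymus genes Foxn1 was at 0 in all 7 libraries and the sum was at most 16.7 normalized counts, reached in control 3. The 4 skeletal muscle genes summed to at most 139 normalized counts, in control 1, and to at most 29.8 in ICI-myocarditis. Among 4 epithelial genes, Epcam and Krt18 were called higher (log2 fold changes 3.20 and 1.89, limma adjusted p = 0.00869 and 0.0435), at 18.2 and 87.5 normalized counts in the mean ICI-myocarditis library, while Krt5 was at 0 in all 3. Epcam, at 0 to 2.47 normalized counts in controls, passed the filter through the ICI-myocarditis libraries alone and therefore had to differ. Of the basophil genes, Mcpt8 was at 0 in all libraries and Prss34 was highest in control 4. The genes named here were singled out once their values were known.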
